A study of Mus musculus with 18 samples.

Results

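The lung response to 1,5-naphthalenediamine (NDA) was set against the lung response to 2,3-benzofuran, gene by gene, in female B6C3F1 mice. Both chemicals are classed as positive lung carcinogens in the study's design text. The quantity described is a difference of 2 differences on the log2 scale: NDA minus feed control, less benzofuran minus corn oil control. A positive value means that a gene moved further up, or less far down, with NDA than with benzofuran, each judged against its own control. All probe sets that carry 1 gene symbol were eligible, 34945 of 45101 on the array. They stood for 18193 genes, of which 13434 passed a filter on low signal and were tested, while 4759 did not pass and were not tested.

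NDA was given at 2000 ppm in feed on 7 days a week and was compared with rodent chow alone. Benzofuran was given at 240 mg/kg by gavage in corn oil, 5 ml/kg, on 5 days a week and was compared with corn oil gavage alone. All mice were exposed for 13 weeks and were 18 weeks old, and RNA came from the right lobe of the lung. Each group held 3 mice with 1 array each (Affymetrix Mouse 430_2), so the comparison used 12 of the 18 arrays of the series. The other 6 arrays, of mice fed N-(1-naphthyl)ethylenediamine dihydrochloride (NEDD) or pentachloronitrobenzene (PCNB), entered the fit only to estimate the spread. Chemical, dose, route and dosing days changed together between the NDA and the benzofuran part of the comparison. What belongs to the chemical and what belongs to a response that depends on the route therefore cannot be told apart.

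Several gene systems named here have well-known roles. The aryl hydrocarbon receptor (AhR) is a ligand-activated transcription factor that induces the cytochrome P450 genes Cyp1a1 and Cyp1b1, whose products oxidise aromatic compounds. NRF2 is a transcription factor released by electrophiles and oxidants, and its targets make glutathione, reduce thioredoxin and conjugate reactive compounds. Plasma cells secrete antibodies, and in mucosal tissue the joining chain joins whole antibody units into polymers that are carried across the epithelium.

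Values are log2 signals as deposited, and a change of 1 on this scale is a 2-fold change. Defining lung genes were near the top of every array: the surfactant gene Sftpc lay at 14.51 to 14.63, the club cell gene Scgb1a1 at 14.30 to 14.51 and the alveolar type 1 gene Ager at 13.81 to 14.13. One library stood apart, the array of benzofuran mouse 10. It lay at 46.6 on the first principal component of all 18 arrays (27.5% of the variance), against -11.8 to 7.8 for the other 17. Its actin 3′ probe set exceeded the 5′ one by 0.91, the highest of all arrays, and this gap, which widens as RNA degrades, was 0.33 to 0.43 on NDA arrays, 0.58 to 0.73 on feed control arrays, 0.35 and 0.40 on the other benzofuran arrays and 0.42 to 0.64 on corn oil control arrays. The gap did not overlap between NDA and feed control arrays. The RNA integrity number in the labels was 8.9 for benzofuran 10, within the 8.3 to 9.4 of the 10 arrays of these groups for which one is given. Values without benzofuran 10 are given beside the results described that it moved.

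With all arrays, 39 genes differed between the 2 responses at a Benjamini-Hochberg adjusted p under 0.05 in limma, 0.29% of the 13434 tested. The NDA effect was the higher one in 27 of them (0.201%) and the lower one in 12 (0.0893%). At an unadjusted p under 0.05 there were 1255 genes, against 672 that the threshold alone would pass. The smallest difference that was called was 0.66 in size. Each response taken alone gave more genes. NDA changed 184 genes (1.37%) against feed control, raising 150 (1.12%) and lowering 34 (0.253%). Benzofuran changed 233 (1.73%) against corn oil control, raising 210 (1.56%) and lowering 23 (0.171%). Without benzofuran 10, the benzofuran count was 67 (0.499%), 61 higher (0.454%) and 6 lower (0.0447%). A difference of 2 differences carries more error than either, and its median standard error over all genes was 0.19, against 0.13 for NDA minus feed control. The median difference over all genes was -0.07. The effects of the single NDA arrays did not overlap those of the single benzofuran arrays in any of the 39 genes called, against 28% of all genes tested.

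**Figure D1:**
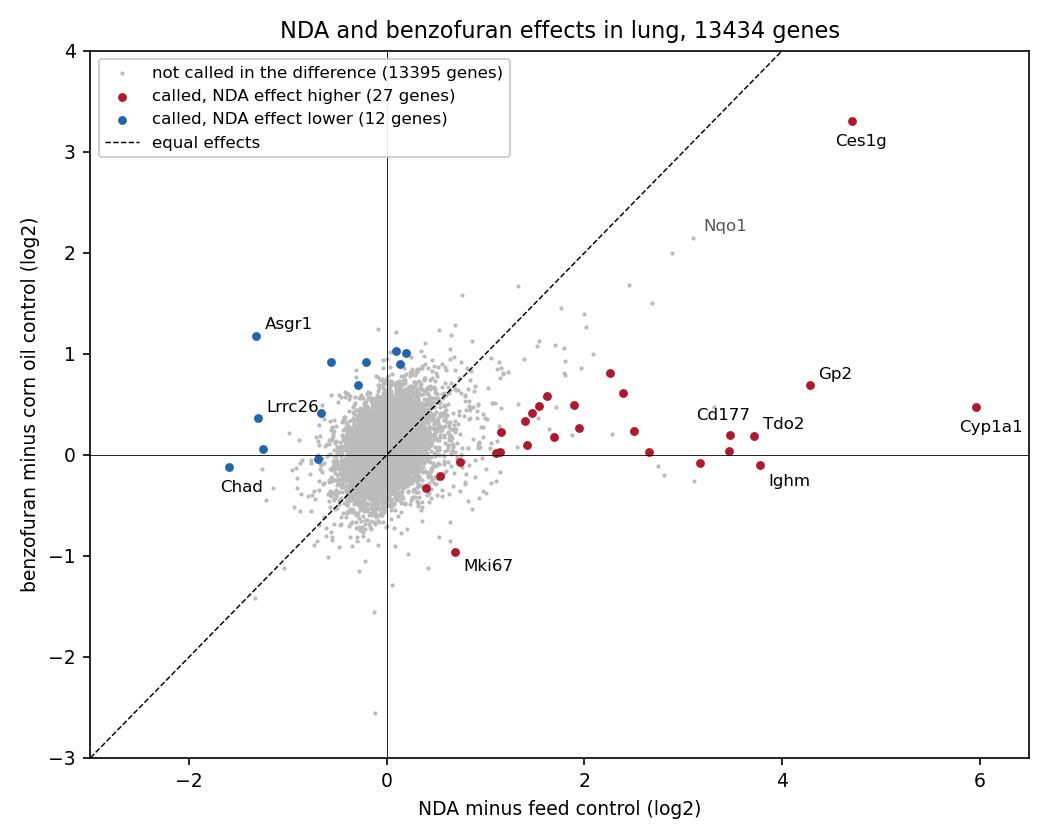
NDA minus feed control (horizontal axis, log2) against benzofuran minus corn oil control (vertical axis, log2) for each gene tested, with the dashed line where both effects are equal. The 27 genes with the higher NDA effect lie to the right of the line and mostly near a benzofuran effect of 0, the 12 with the lower NDA effect lie to its left, and Ces1g was raised strongly by both chemicals.

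Of the 27 genes with the higher NDA effect, 26 had risen against feed control, the exception being the proliferation gene Mki67. Benzofuran itself changed only 4 of the 27 at the same threshold: Ces1g, Txnrd1 and Ghrl, which rose, and Mki67, which fell. Without benzofuran 10, Ces1g alone of these 4 kept its benzofuran call. The 12 genes with the lower NDA effect fell into separate kinds. In 5 of them NDA lowered the gene and benzofuran made no call (Lrrc26, Chad, Slc4a5, Iqca and Car14), in 6 benzofuran raised the gene and NDA made no call (Iyd, 2410004I01Rik, Gfra1, Rptoros, Deup1 and Mthfd1), and in 1, Asgr1, the chemicals moved the gene in opposite directions. The benzofuran calls of Iyd, Gfra1 and Asgr1 were lost without benzofuran 10.

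**Figure D2:**
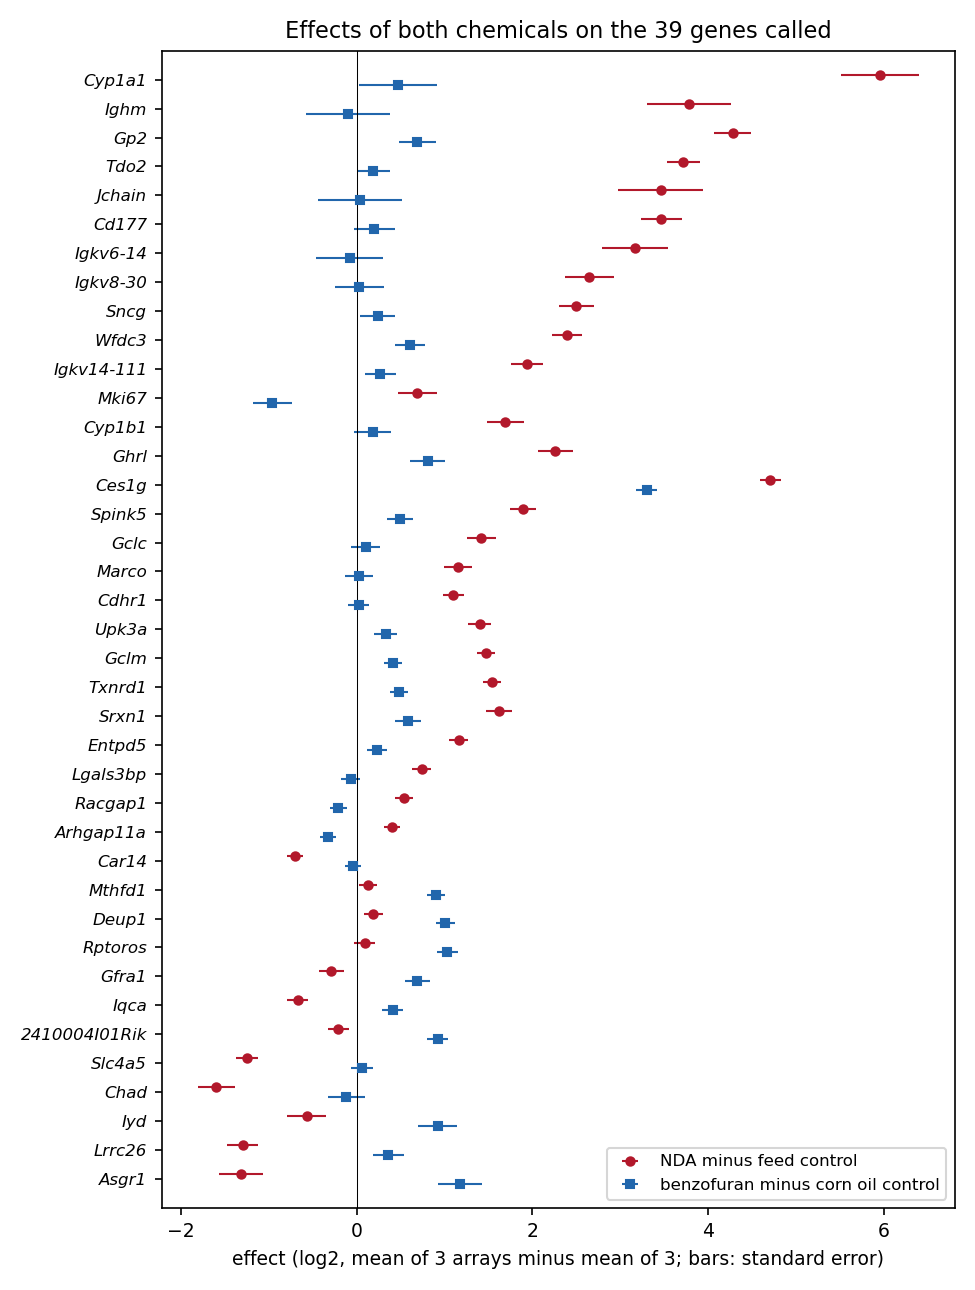
Effect of NDA (circles) and of benzofuran (squares) on each of the 39 genes, in log2 units with the standard error of the fit, ordered by the difference between them from the most positive at the top. In the upper rows the circles lie far to the right of 0 with squares near 0, and in the lowest rows the circles lie left of the squares, with Asgr1 at -1.32 and 1.18.

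By the probe set that stood for each gene, Cyp1a1, the cytochrome P450 most closely tied to AhR, had the largest difference of any gene called. Its log2 signal was 11.53, 11.88 and 12.02 on NDA arrays, against 4.93, 5.51 and 7.12 on feed control arrays. On benzofuran arrays it was 7.13, 7.16 and 6.87, against 6.29, 7.64 and 5.81 on corn oil control arrays. Every NDA array was above every other array shown, while the benzofuran arrays lay within the range of their controls. The NDA effect was 5.96 and the benzofuran effect 0.47, a difference of 5.48 ± 0.62 (SE; limma adjusted p = 0.000232), or a 44.7-fold ratio of the 2 fold changes. Cyp1b1, a related enzyme, stood at 8.61, 9.02 and 8.85 on NDA arrays, against 6.87, 7.52 and 7.01 on feed control arrays. The benzofuran arrays had 7.52, 6.93 and 7.17 and the corn oil control arrays 6.66, 7.38 and 7.03, so these 2 groups overlapped and the NDA arrays stood alone. The difference for Cyp1b1 was 1.51 ± 0.30 (adjusted p = 0.0328), called in 4 of the 12 fits that each left out 1 array, with values of 1.33 to 1.71. Of 8 AhR targets listed, 5 were measured and these 2 were called, against 0.201% of all genes called with the higher NDA effect. Nqo1, Aldh3a1 and Tiparp were not, and the median difference of the 5 was 0.95. Without benzofuran 10, Nqo1 was called as well.

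The promoters of Cyp1a1 and Cyp1b1, and that of the NRF2 target Gclm described next, are shown because AhR and NRF2 act through short DNA motifs. Each sequence is the 250 bases before the RefSeq gene start (build GRCm38.p6), read in the direction of the gene, with 2 motifs in capitals on either strand: GCGTG, the core to which AhR binds, and TGACNNNGC, the core of the antioxidant response element to which NRF2 binds. No base of one motif overlaps another in these windows. Cyp1a1 lies at chr9:57697363-57697612 on the plus strand, Cyp1b1 at chr17:79715062-79715311 on the minus strand and Gclm at chr3:122245307-122245556 on the plus strand.
Cyp1a1: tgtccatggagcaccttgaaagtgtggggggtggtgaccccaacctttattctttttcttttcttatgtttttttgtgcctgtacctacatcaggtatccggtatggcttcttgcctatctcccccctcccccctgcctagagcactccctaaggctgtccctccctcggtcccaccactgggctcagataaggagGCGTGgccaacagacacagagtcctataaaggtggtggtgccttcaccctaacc
Cyp1b1: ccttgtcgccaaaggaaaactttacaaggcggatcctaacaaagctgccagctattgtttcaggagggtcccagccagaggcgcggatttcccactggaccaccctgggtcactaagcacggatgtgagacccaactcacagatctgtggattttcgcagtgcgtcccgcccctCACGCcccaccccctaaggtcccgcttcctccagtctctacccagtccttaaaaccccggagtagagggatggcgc
Gclm: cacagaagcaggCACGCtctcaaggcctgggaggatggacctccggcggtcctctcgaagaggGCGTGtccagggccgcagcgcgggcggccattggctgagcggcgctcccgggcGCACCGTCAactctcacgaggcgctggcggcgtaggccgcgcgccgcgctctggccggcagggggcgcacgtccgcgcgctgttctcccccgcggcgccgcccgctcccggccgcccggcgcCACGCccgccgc
The first 2 windows hold GCGTG once each, and that of Gclm holds it 3 times and TGACNNNGC once. Over all genes called, 11 of 26 promoters of genes with the higher NDA effect held GCGTG (42.3%), against 42.1% of the 13808 promoters of all genes tested. TGACNNNGC was in 15.4% of the same 26, against 11.7%. Promoters were found for 33 of the 39 genes, 40 in all.

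Enzymes of glutathione and thioredoxin metabolism formed the next group. Gclc and Gclm encode the catalytic and the modifier subunit of glutamate-cysteine ligase, which makes the first step of glutathione synthesis. Gclm had 10.35, 10.48 and 10.42 on NDA arrays, against 9.06, 8.98 and 8.79 on feed control arrays, and 9.65, 9.45 and 9.51 on benzofuran arrays, against 8.94, 9.23 and 9.20 on corn oil control arrays. Neither pair of groups overlapped, and the NDA gap was the wider: 1.47, against 0.41 with benzofuran, a difference of 1.06 ± 0.15 (adjusted p = 0.00181). Gclc had 11.92, 12.19 and 12.05 on NDA arrays, against 10.79, 10.76 and 10.33 on feed control arrays. On benzofuran arrays it had 10.23, 10.67 and 10.85, within reach of the 10.25, 10.60 and 10.61 of the corn oil control arrays. Its difference was 1.33 ± 0.24 (adjusted p = 0.0161), called in 8 of 12 fits without 1 array.

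Txnrd1, the cytosolic thioredoxin reductase, had 10.95, 11.13 and 10.97 on NDA arrays, against 9.40, 9.58 and 9.45 on feed control arrays. It had 9.94, 9.94 and 9.86 on benzofuran arrays, against 9.35, 9.57 and 9.39 on corn oil control arrays. Both chemicals raised it, by 1.54 with NDA and 0.48 with benzofuran, and the difference of 1.06 ± 0.14 was called (adjusted p = 0.000831). Without benzofuran 10, the benzofuran effect of 0.46 had an adjusted p of 0.0513. Srxn1, the sulfiredoxin that repairs overoxidised peroxiredoxins, had 8.79, 8.90 and 8.71 on NDA arrays, against 7.01, 7.30 and 7.24 on feed control arrays. On benzofuran arrays it had 8.17, 7.68 and 7.46, the first of these being mouse 10, against 7.01, 7.31 and 7.25 on corn oil control arrays. The difference for Srxn1 was 1.04 ± 0.21 (adjusted p = 0.0424) and 1.24 without benzofuran 10, and it was called in 2 of the 12 fits without 1 array. Its other probe sets gave differences of 1.13, 0.29 and 0.27. With every probe set tested singly, no Srxn1 probe set was called.

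Over the whole list of NRF2 targets, 25 were measured and these 4 were called in the difference, against 0.201% of all genes. The difference was positive in 23 of the 25, and the median was 0.36, against -0.07 over all genes. NDA raised 22 of the 25 over feed control, against 1.12% of all genes. Benzofuran raised 13 over corn oil control, against 1.56% of all genes, and 10 without benzofuran 10, against 0.454%. The median effects were 0.85 with NDA and 0.48 with benzofuran. The list's mean signal lay at 10.15 to 10.26 on NDA arrays, against 8.99 to 9.11 on feed control arrays, and at 9.57 to 9.86 on benzofuran arrays and 8.91 to 9.12 on corn oil control arrays. Of all lists, this one changed its count the most without array benzofuran 10: 10 of the 25 were then called higher, against 0.35% of all genes. The 6 added were Hmox1, Cbr3, Nqo1, Gpx2, Gsta2 and Gsr, at differences of 1.39, 1.36, 1.17, 1.00, 0.85 and 0.75.

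**Figure D3:**
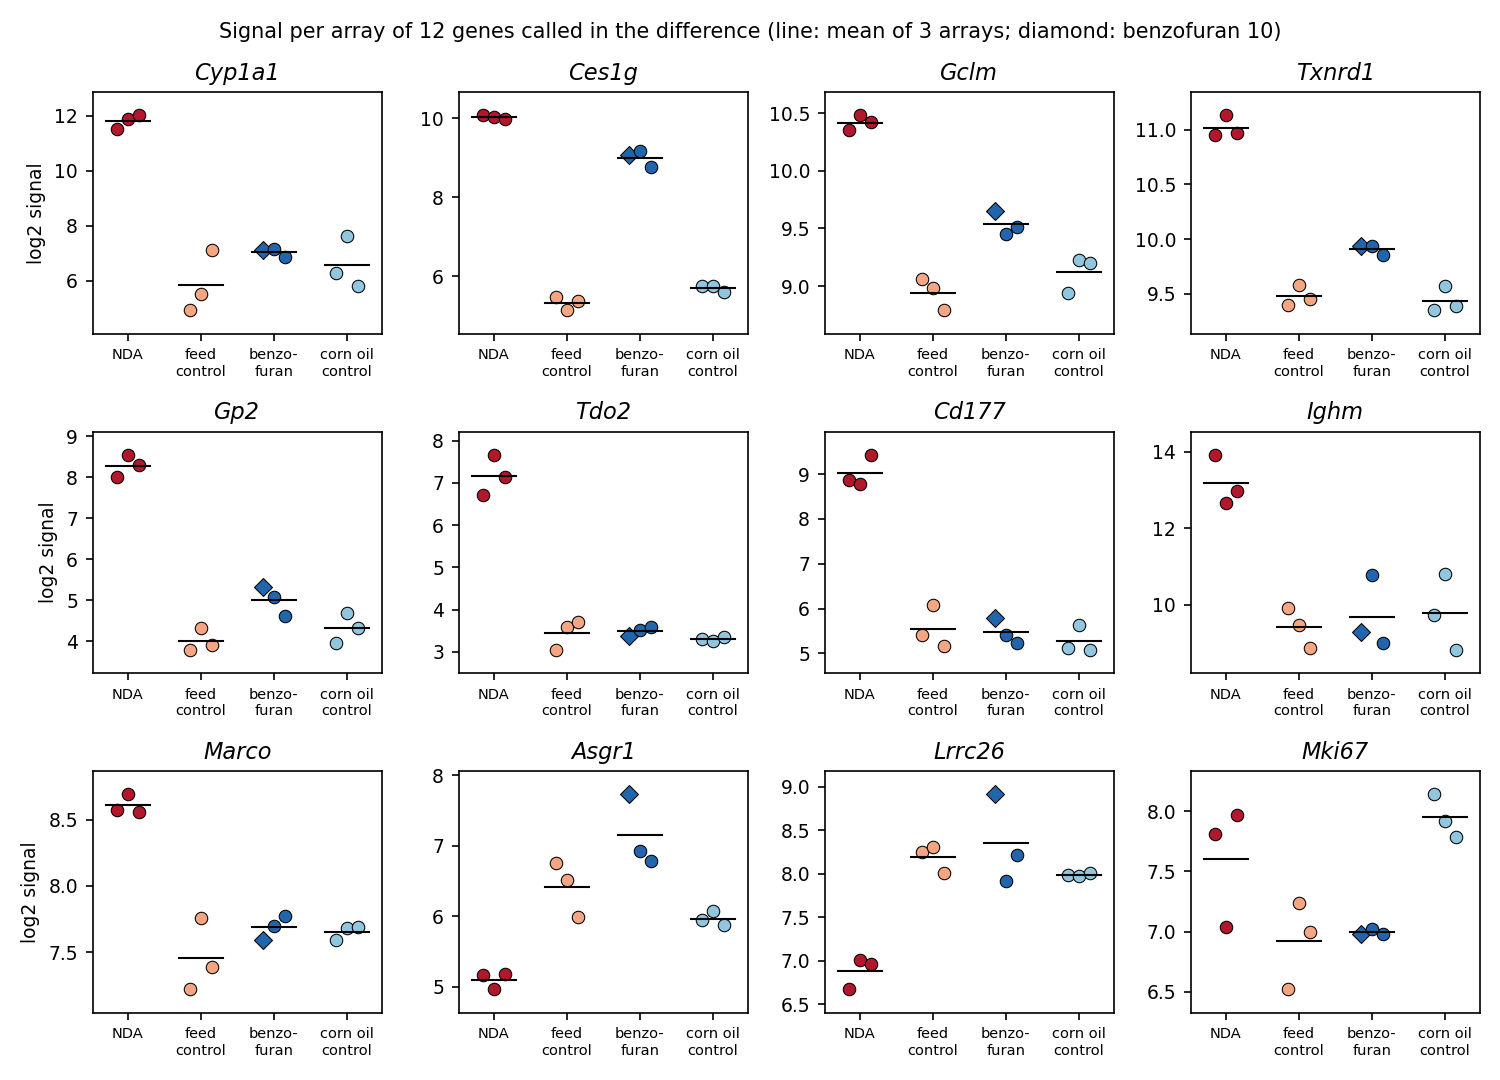
Log2 signal of 12 of the genes called, 1 point for each array, with the mean of 3 arrays as a line and benzofuran 10 as a diamond. In the first 9 panels the 3 NDA arrays lie above all others, in Asgr1 and Lrrc26 they lie below all others, and in Mki67 the NDA arrays (7.04 to 7.97) and the corn oil control arrays (7.79 to 8.14) overlap.

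Ces1g, a carboxylesterase that cleaves ester bonds in lipids and foreign compounds, was raised strongly by both chemicals. It had 10.07, 10.04 and 9.99 on NDA arrays, against 5.48, 5.13 and 5.37 on feed control arrays. It had 9.06, 9.17 and 8.76 on benzofuran arrays, against 5.76, 5.74 and 5.59 on corn oil control arrays. The NDA effect of 4.71 exceeded the benzofuran effect of 3.30 by 1.41 ± 0.17 (adjusted p = 0.000539). Of the gap, 1.04 lay between the treated groups and 0.37 between the controls.

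Ces1g, Txnrd1 and Ghrl were the exceptions among the genes that both chemicals moved the same way. There were 52 such genes, and the other 49 were not called in the difference. Without benzofuran 10 there were 38, of which 6 were called. For 39 of those 49 the 95% interval of the difference lay within 1 log2 unit either side of 0, and for the other 10 it reached further. Nqo1, a quinone reductase that AhR and NRF2 both induce, rose by 3.10 with NDA and 2.15 with benzofuran, with a difference of 0.95 (95% interval 0.38 to 1.52, adjusted p = 0.271). Gpx2, a glutathione peroxidase of epithelia, rose by 2.45 and 1.68 (difference 0.77, interval 0.27 to 1.26). Aldh3a1, an aldehyde dehydrogenase, rose by 1.77 and 1.45 (difference 0.32, interval -0.31 to 0.95), and Gsta2, a glutathione S-transferase, by 1.99 and 1.39 (difference 0.60, interval 0.12 to 1.07). Sptssb, a subunit of the serine palmitoyltransferase that starts sphingolipid synthesis, rose by 2.88 and 2.00 (interval 0.00 to 1.76). Acox2, a peroxisomal oxidase of bile acid intermediates, rose by 2.02 and 1.26 (interval 0.33 to 1.19). Fetub, a secreted protease inhibitor, rose by 2.68 and 1.50 (interval 0.64 to 1.73, adjusted p = 0.0664), and without benzofuran 10 its difference was called at 1.38 (adjusted p = 0.0119). Acsm1, an acyl-CoA synthetase, was the 1 of these 8 with the larger benzofuran effect, 1.33 with NDA and 1.67 with benzofuran (interval -0.92 to 0.24). Several of these intervals leave out 0, so a missed threshold over 13434 genes does not show equal effects.

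Immunoglobulin genes rose with NDA and made no call with benzofuran. Ighm, the constant region of the IgM heavy chain, had 13.92, 12.67 and 12.97 on NDA arrays, against 9.91, 9.46 and 8.86 on feed control arrays. It had 9.29, 10.78 and 8.99 on benzofuran arrays, against 9.73, 10.81 and 8.82 on corn oil control arrays. The groups without NDA overlapped fully and the difference was 3.87 ± 0.68 (adjusted p = 0.0137). It was called in 11 of 12 fits without 1 array, lost only without feed control 29. The other Ighm probe sets that passed the filter gave differences of 2.68 to 6.63, all called with every probe set tested singly. The largest of these exceeded the 5.48 of Cyp1a1. Jchain, the joining chain of polymeric antibodies, had 12.49, 11.78 and 12.30 on NDA arrays, against 9.01, 9.66 and 7.50 on feed control arrays. It had 8.61, 9.84 and 8.69 on benzofuran arrays, against 8.28, 9.61 and 9.12 on corn oil control arrays. Its difference of 3.42 ± 0.68 (adjusted p = 0.0352) was called in 4 of 12 fits without 1 array and not without benzofuran 10 (3.20, adjusted p = 0.0803).

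The kappa light chain variable segments Igkv6-14, Igkv8-30 and Igkv14-111 gave differences of 3.24 ± 0.54, 2.62 ± 0.40 and 1.67 ± 0.26, with adjusted p of 0.00826, 0.0039 and 0.00398, and each was called in all 12 fits without 1 array. Igkv8-30 had 13.06, 12.40 and 12.63 on NDA arrays, against 10.29, 10.56 and 9.29 on feed control arrays, and 10.00, 10.41 and 9.69 on benzofuran arrays, against 9.84, 10.00 and 10.17 on corn oil control arrays. Variable segments resemble each other closely, and the probe sets of Ighm and Igkv8-30 are of types that can bind several transcripts, so which segment rose is uncertain. By the probe set that stood for each gene, Ighm, Jchain and the other list members Iglv1, Mzb1, Igha and Igk had differences of 1.68 to 3.87. Only the first 2 were called.

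Of the 13 plasma cell and immunoglobulin genes measured, 2 were called in the difference, against 0.201% of all genes, and 1 was called without benzofuran 10. The difference was positive in 12 of the 13, against 4947 of the 13434 genes tested, and the median was 0.75. NDA raised 7 of the 13 over feed control, against 1.12% of all genes. Benzofuran raised 0 of the 13 over corn oil control, which is near the 1.56% of all genes. The list's mean signal was 9.38 to 10.11 on NDA arrays, 7.91 to 8.47 on feed control arrays, 8.11 to 8.40 on benzofuran arrays and 8.10 to 8.47 on corn oil control arrays. The plasma cell transcription factors Xbp1 and Prdm1 had differences of -0.12 and 0.10, and the surface marker Sdc1 0.24. None of the 10 B cell genes measured was called, and their median was 0.20. Their mean signal was 6.97 to 7.42 on NDA arrays, 6.88 to 7.21 on feed control arrays, 6.51 to 7.09 on benzofuran arrays and 6.76 to 7.13 on corn oil control arrays, so these ranges overlapped. In RNA of whole lung tissue, more cells of a type and more RNA per cell cannot be told apart.

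Gp2, a glycoprotein known from M cells of the mucosal epithelium and from the pancreas, had 8.01, 8.54 and 8.29 on NDA arrays, against 3.79, 4.32 and 3.90 on feed control arrays. It had 5.33, 5.09 and 4.61 on benzofuran arrays, against 3.96, 4.68 and 4.32 on corn oil control arrays. The difference was 3.59 ± 0.30 (adjusted p = 4.98e-06). No other of the 9 M cell genes measured was called, the next by p being Clu and Ccl20 at 0.30 and 0.48, and Spib, the transcription factor of that cell type, had 0.20. Tdo2, the tryptophan dioxygenase of liver that opens the kynurenine pathway, had 6.70, 7.66 and 7.14 on NDA arrays, against 3.05, 3.60 and 3.70 on feed control arrays. It had 3.38, 3.53 and 3.60 on benzofuran arrays, against 3.30, 3.26 and 3.36 on corn oil control arrays. The difference was 3.52 ± 0.27 (adjusted p = 2.89e-06), the smallest p of all genes. Every control array lay below its own lower quartile of all probe sets (4.04 to 4.21), so the size of this rise depends on the level of signal from unexpressed genes. Tdo2 passed the filter on low signal only through its NDA arrays, so its entry into the test depended on this rise. The other 4 kynurenine genes measured, Kmo, Afmid, Haao and Kyat1, were not called and had differences of -0.23 to 0.17.

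Cd177, a surface protein of neutrophils, had 8.86, 8.77 and 9.43 on NDA arrays, against 5.41, 6.08 and 5.17 on feed control arrays. It had 5.78, 5.42 and 5.24 on benzofuran arrays, against 5.13, 5.64 and 5.08 on corn oil control arrays, with a difference of 3.27 ± 0.32 (adjusted p = 4.17e-05). No other of the 12 neutrophil genes measured was called. The difference was positive in 10 of the 12, against 4947 of the 13434 genes tested, with a median of 0.32. The list's median effect was -0.01 with NDA and -0.42 with benzofuran. Among genes of granule and cytosolic proteins, Ngp and Camp had NDA effects of 0.36 and 0.43 and S100a8 and S100a9 of -0.36 and -0.48, with differences of 1.01, 0.81, 0.31 and 0.22. The list's mean signal was 7.65 to 8.03 on NDA arrays, 7.40 to 7.76 on feed control arrays, 6.96 to 7.35 on benzofuran arrays and 7.34 to 7.81 on corn oil control arrays. Marco, a scavenger receptor of macrophages, had 8.57, 8.69 and 8.56 on NDA arrays, against 7.22, 7.76 and 7.39 on feed control arrays, and 7.59, 7.70 and 7.77 on benzofuran arrays, against 7.59, 7.68 and 7.69 on corn oil control arrays. The Marco difference of 1.12 ± 0.23 (adjusted p = 0.0411) was called in 1 of 12 fits without 1 array and not without benzofuran 10 (1.07, adjusted p = 0.0724). The 16 alveolar macrophage genes measured had a median of -0.04, and their mean signal was 8.92 to 9.10 on NDA arrays, 8.87 to 9.12 on feed control arrays, 8.88 to 9.17 on benzofuran arrays and 8.81 to 9.12 on corn oil control arrays.

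The other genes with a higher NDA effect were of mixed kinds. Sncg, the gamma-synuclein gene, had 9.30, 9.30 and 9.06 on NDA arrays, against 6.93, 6.75 and 6.46 on feed control arrays. It had 7.84, 6.85 and 7.19 on benzofuran arrays, against 6.98, 7.27 and 6.91 on corn oil control arrays, with a difference of 2.26 ± 0.29 (adjusted p = 0.000831). Wfdc3, of the whey acidic protein family, and Spink5, a serine protease inhibitor of epithelia, had differences of 1.78 ± 0.24 and 1.40 ± 0.22. Upk3a, a uroplakin that in mouse airway marks a subset of club cells, had 1.07 ± 0.19, and Cdhr1, a cadherin known from photoreceptors, had 1.08 ± 0.16. These 5 genes were called in all 12 fits without 1 array. Ghrl, the precursor of ghrelin, rose by 2.26 with NDA and 0.81 with benzofuran, and its difference of 1.45 ± 0.28 was called in 4 of those 12 fits. Without benzofuran 10, which at 5.96 was the highest of its group, the benzofuran effect was 0.52 (adjusted p = 0.188) and the difference 1.74. Outside the NDA arrays, Ghrl exceeded the 40th percentile only on benzofuran 10 and benzofuran 6 (5.96 and 5.26). Ghrl therefore needed NDA arrays to pass the filter on low signal, and its entry into the test depended on this rise. Entpd5, a nucleoside diphosphatase that aids protein folding in the endoplasmic reticulum, and Lgals3bp, a secreted galectin-binding glycoprotein, had differences of 0.92 ± 0.16 and 0.81 ± 0.15, called in 10 and 7 of the 12. Control signals of Gp2, Spink5 and Cdhr1 also lay close to the lower quartile of the arrays.

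Asgr1 was the 1 gene called with opposite signs in the 2 responses. It encodes the major subunit of the asialoglycoprotein receptor, known from hepatocytes, where it clears desialylated glycoproteins. It had 5.16, 4.96 and 5.18 on NDA arrays, against 6.75, 6.52 and 5.99 on feed control arrays. On benzofuran arrays it had 7.73, 6.92 and 6.79, the first being mouse 10, against 5.94, 6.08 and 5.88 on corn oil control arrays. Neither pair of groups overlapped. The NDA effect was -1.32 (adjusted p = 0.00764), and the benzofuran effect 1.18 (adjusted p = 0.0224). The difference was -2.50 ± 0.36 (adjusted p = 0.00223), and -2.20 without benzofuran 10. The benzofuran effect was then 0.89 (adjusted p = 0.124), so the opposite calls were not both kept. Arrays benzofuran 6 and benzofuran 8 (6.92 and 6.79) still lay above every corn oil control array. Whether the call was lost through that array or through having fewer arrays was not tested.

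In 5 other genes the difference came with a fall under NDA and no call for benzofuran. Lrrc26, an accessory subunit of the BK potassium channel in secretory epithelia, had 6.67, 7.01 and 6.96 on NDA arrays, against 8.25, 8.31 and 8.01 on feed control arrays. It had 8.91, 7.92 and 8.21 on benzofuran arrays, the first being mouse 10, against 7.98, 7.97 and 8.01 on corn oil control arrays. The difference was -1.67 ± 0.25 (adjusted p = 0.00365), and -1.39 without benzofuran 10. Slc4a5, a sodium bicarbonate cotransporter, had 6.73, 6.48 and 6.95 on NDA arrays, against 7.98, 8.02 and 7.92 on feed control arrays. Its benzofuran arrays, 8.07, 7.84 and 7.88, overlapped the corn oil control arrays, 7.85, 8.10 and 7.64, and the difference was -1.32 ± 0.17 (adjusted p = 0.00105). Car14, a membrane-bound carbonic anhydrase, had a difference of -0.66 ± 0.13 (adjusted p = 0.034), with an NDA effect of -0.70 and a benzofuran effect of -0.04. Chad, the cartilage protein chondroadherin, had an NDA effect of -1.60 and a benzofuran effect of -0.12, and its difference of -1.49 ± 0.29 was called in 4 of 12 fits without 1 array and not without benzofuran 10 (-1.41, adjusted p = 0.066). Chad and Upk3a were the only genes called of the 20 on the club cell and secretory list, against 0.29% of all genes, and its median was -0.03. Iqca, the last of the 5, had an NDA effect of -0.67 and a benzofuran effect of 0.41, with a difference of -1.08 ± 0.17 (adjusted p = 0.00624).

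The genes that benzofuran raised without a call for NDA included Deup1, which builds the deuterosomes from which multiciliated cells make their basal bodies. It had 5.32, 5.33 and 5.13 on NDA arrays, against 5.04, 4.95 and 5.24 on feed control arrays, and 6.10, 5.85 and 5.99 on benzofuran arrays, against 4.94, 4.87 and 5.12 on corn oil control arrays. The benzofuran arrays stood above all others, and the difference was -0.82 ± 0.16 (adjusted p = 0.0262). Mthfd1, an enzyme of folate-dependent one-carbon metabolism, had 10.68, 10.63 and 10.47 on NDA arrays, against 10.46, 10.55 and 10.38 on feed control arrays. It had 10.89, 11.17 and 10.89 on benzofuran arrays, against 10.05, 10.09 and 10.12 on corn oil control arrays, with a difference of -0.77 ± 0.14 (adjusted p = 0.0163). Gfra1, a receptor for the growth factor GDNF, and Iyd, the iodotyrosine deiodinase, had differences of -0.98 ± 0.20 and -1.49 ± 0.31. In both, array benzofuran 10 was the highest of its group, at 7.65 for Gfra1 and 8.12 for Iyd. Without it the Gfra1 difference was -0.78 (adjusted p = 0.0287) and the Iyd difference -1.21 (adjusted p = 0.055). Gfra1 was called in 2 and Iyd in 3 of the 12 fits without 1 array. Rptoros, an RNA named for its place opposite Rptor, and 2410004I01Rik had differences of -0.94 ± 0.16 and -1.13 ± 0.17.

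None of the 21 ciliated cell genes measured was called in the difference. It was negative in 18 of them, against 8487 of the 13434 genes tested, and the median was -0.25. The nearest to the threshold was Tekt2, a protein of ciliary microtubules, at -1.02 ± 0.21 (adjusted p = 0.0533), with an NDA effect of -0.50 and a benzofuran effect of 0.52. The list's mean signal was 8.04 to 8.13 on NDA arrays, 7.75 to 8.07 on feed control arrays, 8.17 to 8.53 on benzofuran arrays and 7.72 to 8.09 on corn oil control arrays. Without benzofuran 10, Tekt2 was called at -0.82 and the median of the list was -0.19.

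Cell cycle genes differed from most other genes called in where their difference lay. Mki67, which marks proliferating cells, had 7.81, 7.04 and 7.97 on NDA arrays, against 6.52, 7.24 and 7.00 on feed control arrays. It had 6.98, 7.02 and 6.98 on benzofuran arrays, against 8.14, 7.92 and 7.79 on corn oil control arrays. The highest group was the corn oil control and not a treated one. NDA arrays overlapped those of feed control (effect 0.69, adjusted p = 0.17), benzofuran arrays lay below all corn oil control arrays (effect -0.96, adjusted p = 0.0302), and the difference was 1.65 ± 0.30 (adjusted p = 0.0208). Racgap1 and Arhgap11a, which act in cell division, had differences of 0.76 ± 0.14 and 0.73 ± 0.13. Mki67 was called in 6, Racgap1 in 5 and Arhgap11a in 9 of the 12 fits without 1 array. Without benzofuran 10 the benzofuran effect on Mki67 was -0.95 (adjusted p = 0.106).

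The difference of the 2 responses is the sum of NDA minus benzofuran and corn oil control minus feed control. In these 3 genes, and in no other of the 39, the control part was the larger: 1.03 of the total for Mki67, 0.55 for Racgap1 and 0.39 for Arhgap11a, against 0.61, 0.20 and 0.34 between the treated groups. For Mthfd1 the parts were nearly equal, -0.38 between the controls and -0.39 between the treated groups. Between the controls limma called 0 genes (0%), with 271 at an unadjusted p under 0.05. When treated mice were compared with each other directly, 96 genes were called (0.715%), among them 35 of the 39. The 4 not called directly were Mki67, Racgap1, Arhgap11a and Mthfd1. Over the 31 cell cycle genes measured, 29 differences were positive, against 4947 of the 13434 genes tested. The 2 called compare with 0.201% of all genes. Their median difference was 0.64, against -0.07 over all genes, while the median of corn oil control minus feed control was 0.57, against -0.02. The list's mean signal was 6.28 to 6.77 on NDA arrays, 6.01 to 6.22 on feed control arrays, 6.30 to 6.60 on benzofuran arrays and 6.53 to 6.77 on corn oil control arrays.

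**Figure D4:**
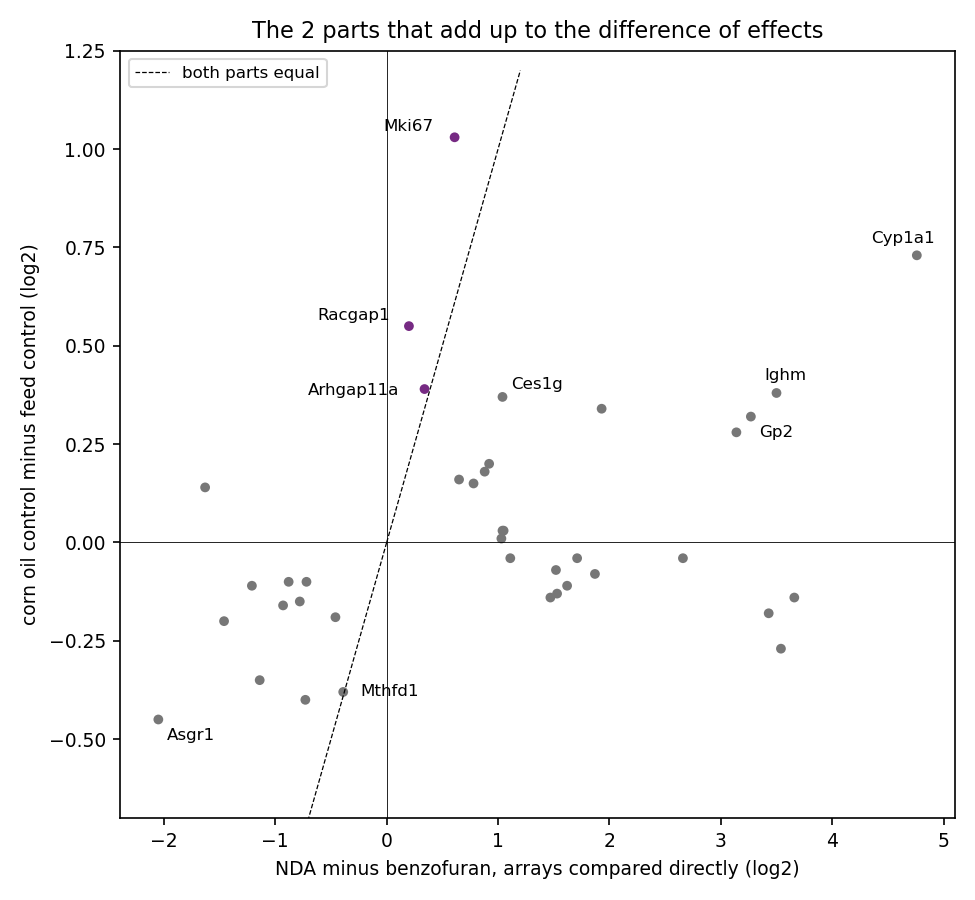
The 2 parts of the difference for each of the 39 genes: NDA minus benzofuran (horizontal axis, log2) and corn oil control minus feed control (vertical axis, log2), with the dashed line where both are equal. Mki67, Racgap1 and Arhgap11a (dark points) lie above the line, and Cyp1a1 lies at 4.76 and 0.73, so that most of its difference lay between the treated groups.

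Other lists held few or no genes called. The 21 glutathione S-transferases and other conjugating enzymes had 0 called and a median of -0.23. Among them Gstm2 and Mgst2 had differences of -0.44 and -0.71, both not called. NDA raised 8 of the 21, against 1.12% of all genes, and benzofuran raised 12, against 1.56%. Without benzofuran 10 the median was -0.07, Gsta2 was called, the Mgst2 difference was -0.44, and benzofuran raised 7 of the 21. The 23 matrix genes had 0 called and a median of 0.30. Col1a1 and Col1a2, the chains of type I collagen, had NDA effects of 0.08 and -0.04 and benzofuran effects of -0.90 and -0.66, with adjusted p of 0.387 and 0.345 for the differences. Without benzofuran 10 the median was 0.12, and the differences of Col1a1 and Col1a2 were 0.59 and 0.42, against 0.99 and 0.63 with all arrays. No gene was called on the lists for DNA repair, p53 targets, interferon response, alveolar type 1, alveolar type 2 or endothelial cells, whose medians lay between -0.08 and 0.09.

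**Figure D5:**
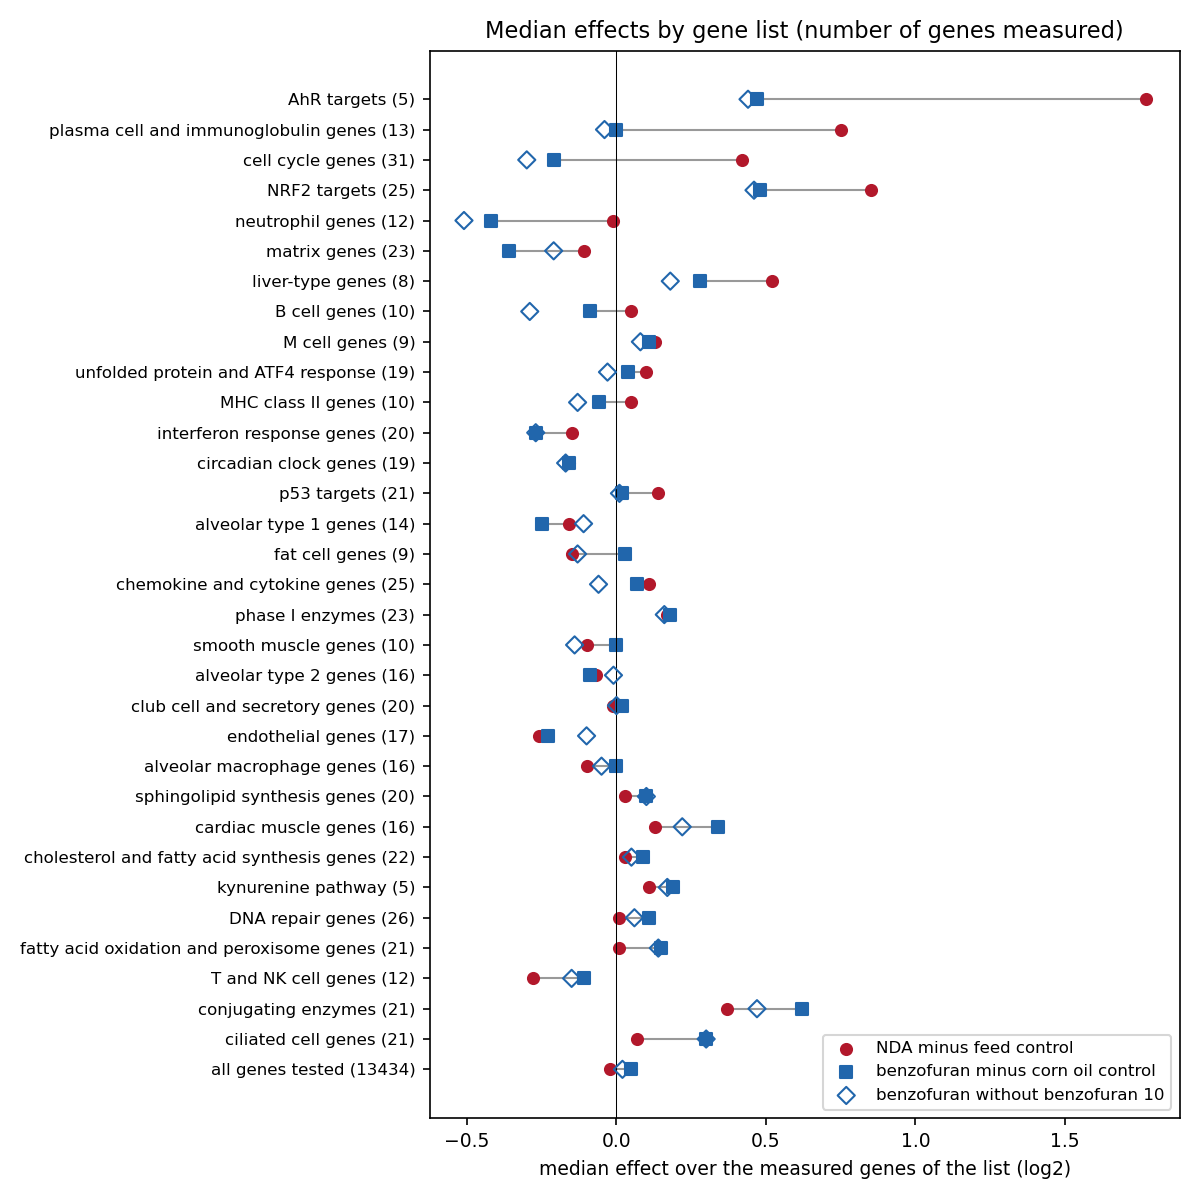
Median NDA effect (circle) and median benzofuran effect (filled square) over the measured genes of each list in log2 units, with the benzofuran median without array 10 as an open diamond and the number of genes in brackets. The circle lies far to the right of the square for AhR targets (1.77 and 0.47) and for plasma cell and immunoglobulin genes (0.75 and 0.00), and to its left for ciliated cell genes (0.07 and 0.30).

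The number of genes called moved when other arrays were left out, to 23 without NDA 5, and also when array benzofuran 10 was left out. Without it the count was 61 (0.454%), 47 higher and 14 lower, and 35 of the 39 genes remained. The 4 that were not called then were Jchain, Marco, Chad and Iyd. The 26 added genes, named here after their values were seen, included Ccl8, a chemokine that attracts monocytes (2.34, adjusted p = 0.0287), Orm1, an acute phase protein (1.83, adjusted p = 0.0114), Cldn2, a tight junction protein (1.41, adjusted p = 0.00897), and Shh, the sonic hedgehog ligand (0.80, adjusted p = 0.0272). With all arrays these 4 had differences of 2.08, 1.39, 1.02 and 0.72. The cell cycle genes called higher were 4 without it, against 0.35% of all genes, Cep55 and Mcm5 being added. Of the 39 genes, 20 were called in all 12 fits without 1 array and in every other setting in which they were tested: Cyp1a1, Gp2, Tdo2, Cd177, Igkv6-14, Igkv8-30, Igkv14-111, Sncg, Wfdc3, Ces1g, Spink5, Cdhr1, Upk3a, Txnrd1, Gclm, Asgr1, Lrrc26, Slc4a5, 2410004I01Rik and Iqca. Of these 20, Tdo2, Gp2, Spink5, Cdhr1 and Igkv14-111 needed NDA arrays to pass the filter, and the fits without 1 array kept that filter. With the actin 3′ minus 5′ gap as a covariate, 43 genes were called and 31 of the 39 remained, those lost being Jchain, Marco, Lgals3bp, Chad, Iyd, Gfra1, Rptoros and Deup1. Of the 39 genes, 14 had other probe sets on the array, 23 of which passed the filter, and all 23 gave a difference of the same sign, 11 of them called. Those called belonged only to Ighm, Entpd5, Cyp1b1 and Gclc, and most of them to Ighm. The second probe set of Iqca had a difference of -0.22 and was not called, against -1.08 for the one used.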

How the data were processed

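Lung RNA (10 µg, 1 mouse per array, by the labels) was measured on 18 arrays. The deposited table holds values on a log2 scale, judged from their range of 2.48 to 14.78 and they were used unchanged; their normalization by the authors is not given in the sources used here. Array number, 3 per group, limits the precision. Genes were named from the platform annotation (932 probe sets with several symbols, 9160 with none and 64 controls were left out), and 34741 of 34945 were matched to RefSeq GRCm38.p6. The probe set with the highest mean stood for each gene and was kept where its signal passed the 40th percentile of at least 3 of the arrays. limma 3.58.1 (R 4.3.3; lmFit, contrasts.fit, eBayes) fitted 6 group means to all 18 arrays (12 residual degrees of freedom), two-sided, with Benjamini-Hochberg adjustment over 13434 genes and a threshold of 0.05. On simulated data for the NDA minus benzofuran difference (13434 genes, 200 changed) it recovered 30.4% of 1.5-fold, 76.1% of 2-fold and 99.1% of 4-fold changes, with 6% false calls. Members and gene lists were chosen with earlier results of these data known. Named genes were the called genes with the largest differences, all called list members or else up to 3 by p, 8 shared genes and those of opposite sign. The called genes outside that rule (Spink5, Cdhr1, Entpd5, Lgals3bp, Arhgap11a, 2410004I01Rik) and list genes named to describe a list were added after their values were seen. Each result was recomputed with quantile normalization, median centring, no filter, the 60th percentile, 12 arrays, array weights, a trended robust prior, actin 3′ minus 5′ as covariate, every probe set singly, and without each array.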

Additional observations from a re-analysis of the deposited data

Results flagged for a closer look

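The Asgr1 responses to the 2 chemicals ran in opposite directions on every array: the difference was -2.50 ± 0.36 in log2 units, and the test of the difference itself was called (limma adjusted p = 0.00223). Without benzofuran 10 the difference was -2.20 and still called (adjusted p = 0.00344), while the benzofuran effect alone was not (0.89, adjusted p = 0.124).

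Among the genes called, Cyp1a1 and Ces1g were also raised against feed control in the 2 groups of fed mice that entered no comparison above. Cyp1a1 rose by 3.23 with NEDD (limma adjusted p = 0.0118) and by 3.70 with PCNB (adjusted p = 0.00118), with group means of 9.09 and 9.55 against 5.85 in feed control, and the NDA mean was 11.81. Ces1g rose by 0.76 with NEDD (adjusted p = 0.0371) and by 1.01 with PCNB (adjusted p = 0.00118). Marco was lower with NEDD by a log2 effect of -1.04 (adjusted p = 0.0292), while its NDA effect was 1.15. Groups of 3 arrays were not tested for single outlying arrays.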

How the results depend on the processing

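No paired analysis was possible because no animal number occurs in more than 1 group. Over the 39 genes and all alternatives, 851 values were computed: 679 kept their call, 172 kept their direction and lost it, and 0 changed sign. The count of 39 genes was 31 to 43 under other normalizations, filters, priors, the actin covariate (43, with 31 of the 39) and single probe sets, but 21 when only the 12 arrays of the 4 groups were fitted (16 higher, 5 lower), 158 with array weights (88 higher, 70 lower) and 96 with controls not subtracted, the last being another comparison by construction. Array weights gave benzofuran 10 a weight of 0.12 and also moved the NDA count of 184 to 755 and the benzofuran count of 233 to 1149. The actin covariate moved these counts to 364 and 734. For benzofuran, 12 arrays gave 49 and single probe sets 154. Without 1 array at a time, the difference gave 23 genes (without NDA 5) to 61 (without benzofuran 10), and 25 without feed control 27 or corn oil control 24. Without benzofuran 8 it gave 23 higher and 26 lower. The NDA count was 120 (without feed control 29) to 311 (without benzofuran 10), and the benzofuran count 37 (without corn oil control 22) to 1054 (without benzofuran 8). Between the controls 0 to 1 genes were called. The cause of these shifts was not tested. With 3 arrays a group, 30.4% of 1.5-fold differences were recovered on simulated data in which no array stood apart. Differences of that size or smaller can be missed, and the recovery rate in the data themselves was not tested.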
